A study of Mus musculus with 39 samples.

Results

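Tetraspanins are a family of cell-surface proteins, and 10 of their genes were followed here in single intestinal crypt cells that had survived irradiation: Cd81, Cd9, Cd63, Cd151, Cd82, Tspan1, Tspan3, Tspan8, Tspan13 and Tspan31. They were taken by name from the 25219 genes of the deposited table, and each of the 10 names was found once. The 39 cells came from a mouse strain labelled Lgr5-EGFP-Ires-CreERT2:Rosa-lsl-tdTomato, in which tamoxifen switches on a red fluorescent protein in cells that express the stem cell receptor gene Lgr5, and their progeny keep it. Tamoxifen was given 24 h before 10 Gy of total body irradiation, and tdTomato+ Sca1- crypt epithelial cells (Sca1- Lgr5-derivatives) were sorted 48 h after the irradiation. Every cell carried both alleles and received both treatments, so no untreated or Sca1+ cell stands beside them. The labels tie no cell to an animal. All 39 therefore count as 1 biological sample, every SD given is a spread over cells, and no test or p-value was computed.

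Levels are given in FPKM, which divides the fragments of a gene by its transcript length and by a total of the cell, so that genes of different length can be compared. Counts per cell went from 398418 to 3903971, with a median of 3089188, and genes detected at 1 FPKM or more numbered 2287 to 5779. Cells 9 and 79 had the fewest genes, 2287 and 2335, and the next cell had 2988. The epithelial label held, since Epcam, Krt8 and Krt18 were at 1 FPKM or more in all 39 cells. Of 9 immune markers, 8 were at 1 FPKM in no cell, and of 6 stromal and endothelial markers, 5 were in no cell. Of the other epithelial markers, Cldn7 was at 1 FPKM or more in 39 cells, Cdh1 in 38, Krt19 in 37 and Vil1 in 31. The epithelial transcription factor gene Cdx2 was the clearest exception to the label, with 1 FPKM or more in 2 cells.

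A tetraspanin crosses the membrane several times and has a large outer loop that binds partner proteins, among them integrins, immunoglobulin-like proteins and proteases. Family members gather with these partners in patches of the membrane called tetraspanin-enriched microdomains, and several are carried in endosomes and on extracellular vesicles. In the intestine they are known from epithelial cell adhesion and from crypt cell surface markers.

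Cd81 and Tspan8 had the highest mean levels, and their start regions differed in base composition. The 250 bases before each start site are shown for that reason, as RefSeq gives them for GRCm38.p6, 5′ to 3′ on the strand of the gene. Capitals mark every match to 5 motifs searched on both strands. These were the GC box written GGGCGG, which general activators bind, and the TATA-box letters TATAAA of the core promoter. The other motifs were the CAAT-box letters CCAAT, the letters CTTTGAT bound by the TCF factors of Wnt signalling, and the letters GGAATG bound by the TEAD partners of YAP. In both genes the RefSeq start site equalled the start of the gene in the deposited table.
Cd81, chr7:143052500-143052749, + strand: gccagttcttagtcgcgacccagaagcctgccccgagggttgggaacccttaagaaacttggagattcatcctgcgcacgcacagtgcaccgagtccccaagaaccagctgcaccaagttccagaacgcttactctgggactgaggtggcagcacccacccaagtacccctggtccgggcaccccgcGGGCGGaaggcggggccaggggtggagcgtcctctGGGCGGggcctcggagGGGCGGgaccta
Tspan8, chr10:115817034-115817283, + strand: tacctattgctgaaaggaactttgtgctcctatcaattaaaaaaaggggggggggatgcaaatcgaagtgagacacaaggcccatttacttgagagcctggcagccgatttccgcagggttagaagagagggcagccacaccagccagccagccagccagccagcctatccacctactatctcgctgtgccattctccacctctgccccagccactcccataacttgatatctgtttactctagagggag

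The Cd81 sequence was 65.6% G and C, held 16 CpG dinucleotides and matched the GC box 3 times. The Tspan8 sequence was 52.4% G and C, held 4 CpG dinucleotides and matched none of the 5 motifs. Over all 32851 promoter windows of the same length, the median was 52.4% G and C and 6 CpG dinucleotides. A GC box occurred in 32.7% of them, a TATA box in 12.4%, a CAAT box in 33.8%, a TCF motif in 3.21% and a TEAD motif in 12.6%. A match is a description of the letters and not of a bound site. All 10 members had a RefSeq window, and none of these held a TATA box or the TCF motif. For Cd63 the RefSeq start site lay 426 bases from the deposited one.

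Tspan8, Cd81 and Cd63 made up most of the tetraspanin mRNA of these cells. Tspan8, an epithelial tetraspanin of the gut, had the highest mean, 424 ± 340 FPKM (SD over 39 cells), which placed it at 209 among all genes. It ranged from 11.9 FPKM in cell 83 through a median of 355 to 1452 FPKM in cell 79, and it was the one member at 1 FPKM or more in all 39 cells (exact 95% interval 91.0% to 100%).

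Cd81, which is well known as a hepatitis C virus receptor, followed at 386 ± 257 FPKM and place 229. Its lowest value was 0.285 FPKM in cell 79, its median 357 FPKM and its highest 1172 FPKM in cell 30. It was at 1 FPKM or more in 38 cells (97.4%, exact 95% interval 86.5% to 99.9%). The mean of Tspan8 was 1.10 times that of Cd81, far less than the SD of either, and by the median Cd81 came first. Without cells 9 and 79 the mean of Cd81 was also the first of the 10. The order of the leading pair was therefore not resolved. The study chose Cd81 from a few surface molecules for its high level in these same cells, so that level is no independent finding.

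Cd63, the tetraspanin of late endosomes and exosomes, came next at 259 ± 244 FPKM and place 338. It ranged from 0.693 FPKM in cell 9 through a median of 197 to 1157 FPKM in cell 67 and was at 1 FPKM or more in 38 cells. Exact intervals for shares of cells cover the counting of cells only, as if the 39 cells were independent draws, and not the spread between animals. No molecular identifiers are named for these libraries, so amplified copies are counted with the rest.

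The surface proteins Cd9 and Tspan1 and the less studied Tspan31 formed a middle group. Cd9, a close relative of Cd81 that shares partners with it, had a mean of 96.4 ± 109 FPKM, a median of 49.98 and a highest value of 431 FPKM in cell 5, and it was listed at 0 in 7 cells. Tspan31 reached 86.4 ± 91.3 FPKM with a median of 62.8, and Tspan1 reached 66.7 ± 81.3 FPKM with a median of 49.6. The ranges of neighbours in this order overlapped, and their means differed by less than the SD of either. Each of the 3 genes was at 1 FPKM or more in at least 28 cells: 32 for Cd9, 30 for Tspan31 and 28 for Tspan1.

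The remaining 4 members were seen in fewer cells. Tspan3 averaged 30.2 ± 44.1 FPKM over all cells and was at 1 FPKM or more in 25 cells. Tspan13 averaged 25.8 ± 41.4 FPKM over all cells, with 20 cells at 1 FPKM or more. Cd151, which binds laminin-binding integrins at the basal side of epithelia, averaged 9.67 ± 20.9 FPKM, with 15 cells at 1 FPKM or more. Cd82, a tetraspanin known as a suppressor of metastasis, averaged 7.71 ± 22.3 FPKM, with 12 such cells. A single cell, number 48, held the highest value of both, 75.1 FPKM of Cd151 and 129 FPKM of Cd82. That value of Cd82 was 42.95% of its sum over all cells.

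**Figure D1:**
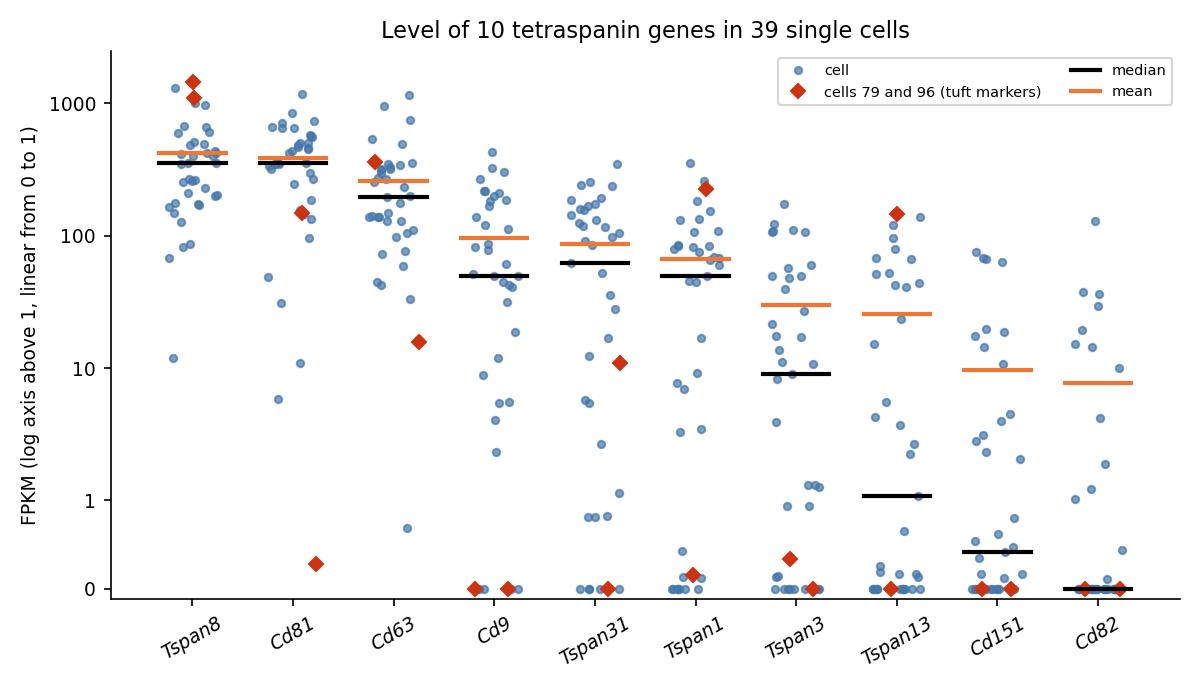
FPKM of the 10 tetraspanin genes in each of 39 cells, ordered by mean, on an axis that is logarithmic above 1 and linear from 0 to 1. Points are cells, diamonds are cells 79 and 96, and bars are the mean and the median; Tspan8, Cd81 and Cd63 stay above 1 FPKM in at least 38 cells while Cd82 has a median of 0.

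A cell held a median of 7 of the 10 genes at 1 FPKM or more, and 37 cells held at least 5. All 10 were found in cells 7, 52 and 60. The fewest were found in cell 9, with 2 members (Cd81 and Tspan8), and in cell 96, with 3. The summed level of the 10 genes ran from 115 FPKM in cell 9 through a median of 1204 to 3220 FPKM in cell 67.

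Cd81 was the most abundant member in 21 of 39 cells, Tspan8 in 13, Cd63 in 4 and Cd9 in 1. Cd81 was first or second in 28 cells and Tspan8 in 27. With Cd63 they made up a median of 75.9% of the summed FPKM of the 10 genes, from 47.3% in cell 17 to 99.97% in cell 96. When the estimated counts were used in place of FPKM, Cd81 led in 22 cells and Tspan8 in 14. The other 21 tetraspanin genes changed this order little: among all 31, Cd81 led in 20 cells and Tspan8 in 13, with Tspan12 and Tspan15 ahead in 1 cell each.

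The balance of Cd81 and Tspan8 differed widely between cells. The log2 ratio of Cd81 to Tspan8 went from -12.31 in cell 79 to 4.89 in cell 83, with a median of 0.23. Cd81 was more than 2-fold above Tspan8 in 12 cells and more than 2-fold below it in 12 cells.

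**Figure D2:**
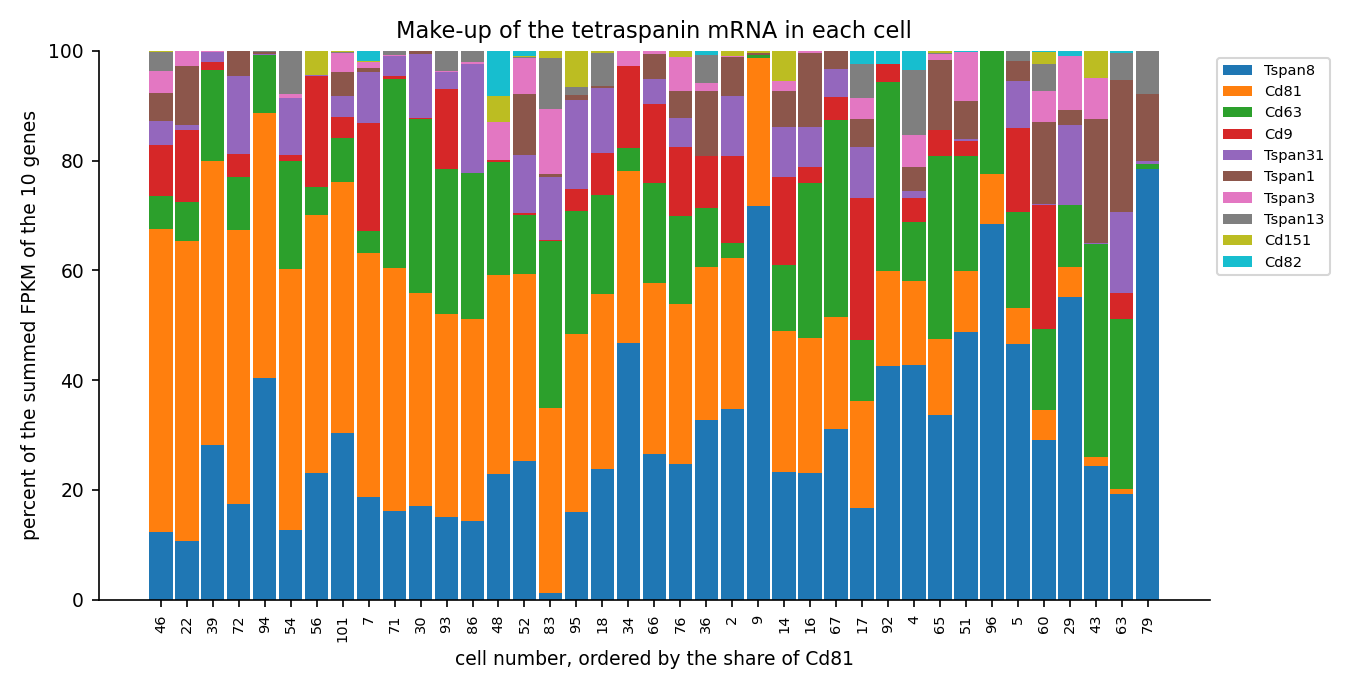
Share of each tetraspanin gene in the summed FPKM of the 10 genes, 1 bar for each of 39 cells, ordered by the share of Cd81. The share of Cd81 falls from 55.2% to 0.0154%, and in the cells with the least Cd81 the bar is filled mainly by Tspan8, Cd63 or Tspan1.

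Evenness between cells was measured by the Gini coefficient, which is 0 when every cell has the same level and approaches 1 when a single cell holds all of it. Cd81 was the most even member, at 0.365. Tspan8 followed at 0.407 and Cd63 at 0.452. Tspan31, Cd9 and Tspan1 lay at 0.565, 0.588 and 0.603, Tspan3 and Tspan13 at 0.694 and 0.740, and Cd151 and Cd82 at 0.821 and 0.874. The 5 highest cells held 27.4% of all Cd81 FPKM, 35.3% of Tspan8 and 83.9% of Cd82.

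Members with a lower mean were in general less even, and genes of lower mean were less even across the table as well. Over the 4917 genes with a mean of 10 FPKM or more, the median Gini coefficient was 0.697, and 7.71% of genes were more even than Cd81. Over the 867 genes with a mean of 100 FPKM or more, the median was 0.410. Of those genes, 39.1% were more even than Cd81, 49.4% more even than Tspan8 and 61.8% more even than Cd63. Cd81 was thus among the more even genes of the table and near the middle of genes of high level.

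The place of Cd81 depended on the measure of evenness. By the coefficient of variation Cd81 was again first, at 0.666. By the SD of log2(FPKM + 1) it came at place 4, at 2.01, behind Tspan8 at 1.31, Cd63 at 1.69 and Cd82 at 1.99, where Cd82 was low in most cells. The log scale gives more weight to low values, and whether the few cells with little Cd81 set this place was not tested.

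**Figure D3:**
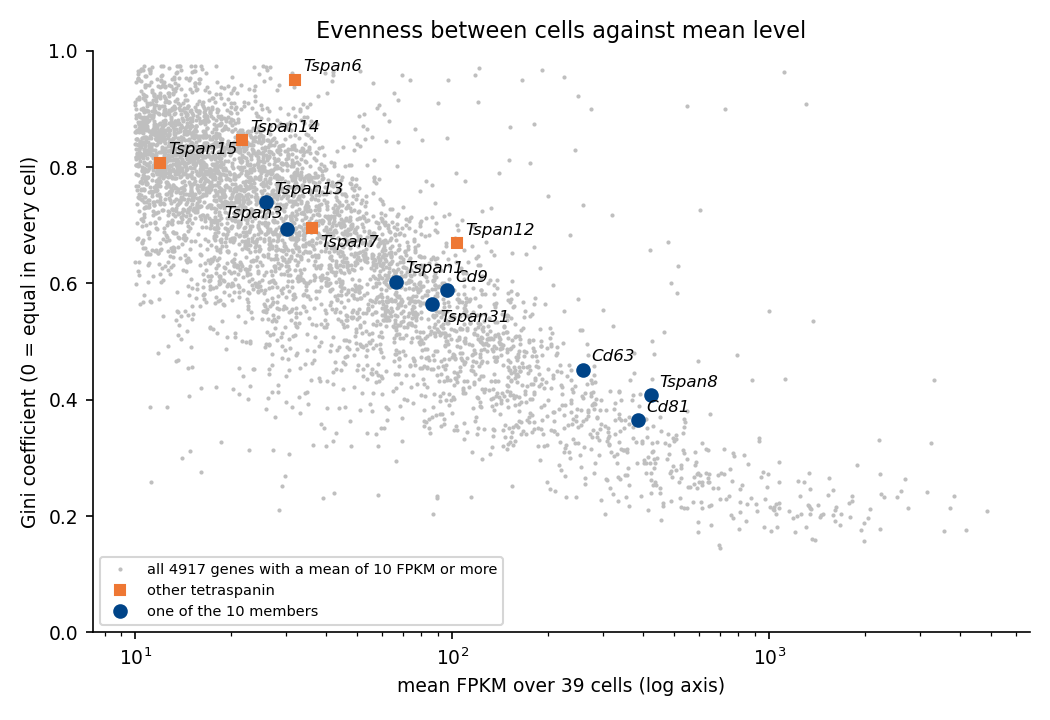
Gini coefficient against mean FPKM (log axis) for all 4917 genes with a mean of 10 FPKM or more, with the 8 members and the 5 other tetraspanins that pass this filter named. Cd81 lies lowest of the tetraspanins at 0.365 and Tspan6 highest at 0.950.

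Cd81 was under 50 FPKM in 5 cells, and the next cell had 95.6 FPKM. The 5 values were 30.95 FPKM in cell 9, 5.82 in cell 43, 48.7 in cell 60, 11.02 in cell 63 and 0.285 in cell 79, the last from a single count. The other 34 cells spanned a 12.3-fold range. Cells 9, 43 and 79 were also the 3 shallowest libraries, with 398418, 661255 and 1466913 counts, while the lowest of the 34 had 1695298. Cells 60 and 63 had 3631782 and 2704767 counts. The part of depth in the low Cd81 values was not tested.

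Other tetraspanins were present in these 5 cells. Tspan8 was at 82.1, 87.0, 258, 205 and 1452 FPKM in cells 9, 43, 60, 63 and 79, and it led in 3 of them. Cd63 led in cells 43 and 63, with 138 and 330 FPKM. Tspan1 was at 257 FPKM in cell 63 and 226 FPKM in cell 79. Olfm4, a stem cell marker gene of the crypt, was at 2.56, 5.38, 1022, 34.7 and 0.792 FPKM in the 5 cells, so that its level was high in 1 of them.

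Coefficients between the 10 genes were mostly small. Spearman coefficients over 39 cells had a median of 0.03 over the 45 pairs and ran from -0.31 to 0.34. A coefficient of 0.3 or more was reached by 3 pairs (6.67%) and one of -0.3 or less by 1 pair (2.22%). Among all pairs of genes with a mean of 10 FPKM or more, the shares were 7.4% and 1.88%, so the member counts were near those of the table. Cd151 and Cd82 do not pass this filter. Among the 28 pairs of the other 8 members, 2 (7.14%) reached 0.3 and 0 reached -0.3. Within a cell, both genes of a pair come from the same library, with its depth and amplification, and these coefficients are descriptions.

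The highest pair was Cd63 with Tspan31 at 0.34, followed by Cd82 with Tspan3 at 0.34 and Cd63 with Tspan8 at 0.30. The lowest was Cd151 with Tspan8 at -0.31. Both genes of a pair were at 1 FPKM or more in 30 cells for Cd63 with Tspan31 and in 9 for Cd82 with Tspan3. When the counts were thinned to 600000 in each cell, no pair reached 0.3 and 1 pair was at -0.3 or less.

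By Spearman's coefficient over all 39 cells, Cd81 stayed under 0.3 in size with each of the other 9 members. Its coefficient was 0.27 with Tspan31, 0.22 with Cd9, 0.16 with Cd63, 0.12 with Cd151 and 0.04 with Tspan8. On the other side it was -0.22 with Tspan1 and -0.18 with Cd82. In the table as a whole, 5.17% of 4916 genes reached 0.3 with Cd81 and 2.4% reached -0.3. The value for Cd9 fell to 0.11 without cells 9 and 79, both of which had Cd9 at 0, and that for Cd63 fell to 0.03. Other settings gave higher values: by Pearson's coefficient of log2(FPKM + 1) they were 0.39 for Cd9 and 0.39 for Cd63, and with the number of genes detected held fixed that for Cd9 was 0.30. Whether Cd81 went with Cd9 or Cd63 therefore depended on the measure and on the cells included.

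**Figure D4:**
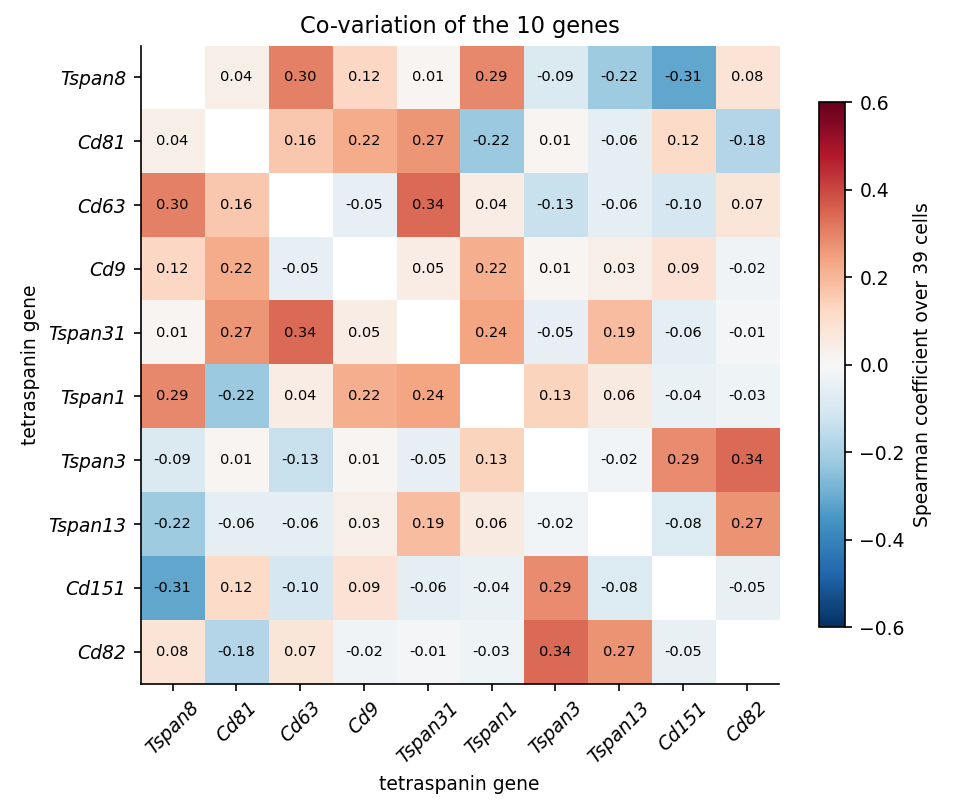
Spearman coefficients between the 10 tetraspanin genes over 39 cells, with the value printed in each square, genes ordered by mean level and the diagonal left blank. Values lie between -0.31 and 0.34.

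The genes of the table most like Cd81 were of other families. Among 3368 genes with a mean of 10 FPKM or more and 1 FPKM in at least 50% of cells, the 5 highest coefficients with Cd81 were those of Rps3a1 (0.57), Tbca (0.56), Rpl39 (0.55), Psma3 (0.53) and Sub1 (0.53). Rps3a1 and Rpl39 encode ribosomal proteins, Tbca a tubulin-folding cofactor, Psma3 a proteasome subunit and Sub1 a transcription coactivator. The 5 lowest were Eps8l3 (-0.56), Ech1 (-0.55), Prr15 (-0.49), Ndufs7 (-0.49) and Myo6 (-0.47). Ech1 and Ndufs7 encode proteins of fatty acid oxidation and respiratory complex I, and Myo6 a motor protein that moves on actin.

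Tetraspanins act through partners, and 18 partner genes were looked up. Of these, 10 had a mean of 10 FPKM or more. Igsf8 and Ptgfrn, immunoglobulin-like proteins that bind Cd81 and Cd9, were low, with means of 1.37 and 4.34 FPKM. Itga6 and Itgb1, integrin subunits, had means of 26.4 and 26.2 FPKM, and the integrin subunit genes Itga3, Itgb4 and Itga2 were each under 10 FPKM. Epcam and Cldn7, adhesion and junction proteins found in complexes with Tspan8, were at 231 and 244 FPKM.

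Of the 10 partner genes with a mean of 10 FPKM or more, 2 reached 0.3 with Cd81 and none reached -0.3, where 5.17% and 2.4% of all genes did. Ifitm3, an antiviral membrane protein of a family that associates with Cd81, which the study also counts among stem cell genes, had a mean of 595 ± 509 FPKM and a coefficient of 0.46, higher than 99.4% of the 4916 genes. Ifitm3 ran from 0 FPKM in 2 cells through a median of 540 to 1957 FPKM in cell 36. Cd44, the hyaluronan receptor, had a mean of 80.4 ± 114 FPKM and a coefficient of 0.43.

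Both coefficients were smaller without the cells that had little Cd81. In the other 34 cells they were 0.31 for Ifitm3 and 0.28 for Cd44, and without cells 9 and 79 alone they were 0.38 and 0.34. Cell 9 had Ifitm3 at 0 and Cd44 at 0.297 FPKM, and cell 79 had them at 1.34 and 0 FPKM. Sdcbp, which encodes the exosome adaptor syntenin that binds Cd63, stood at 0.27 in all cells and at 0.01 in the 34. Epcam stood at -0.14 and Cldn7 at 0.12. The other 5 of the 10 lay between -0.08 and 0.20: Itga6 at 0.20, Itgb1 at -0.08, the protease gene Adam10 (mean 28.1 FPKM) at 0.02, and the endosomal sorting genes Tsg101 (45.3 FPKM) and Pdcd6ip (13.01 FPKM) at 0.14 and 0.08.

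**Figure D5:**
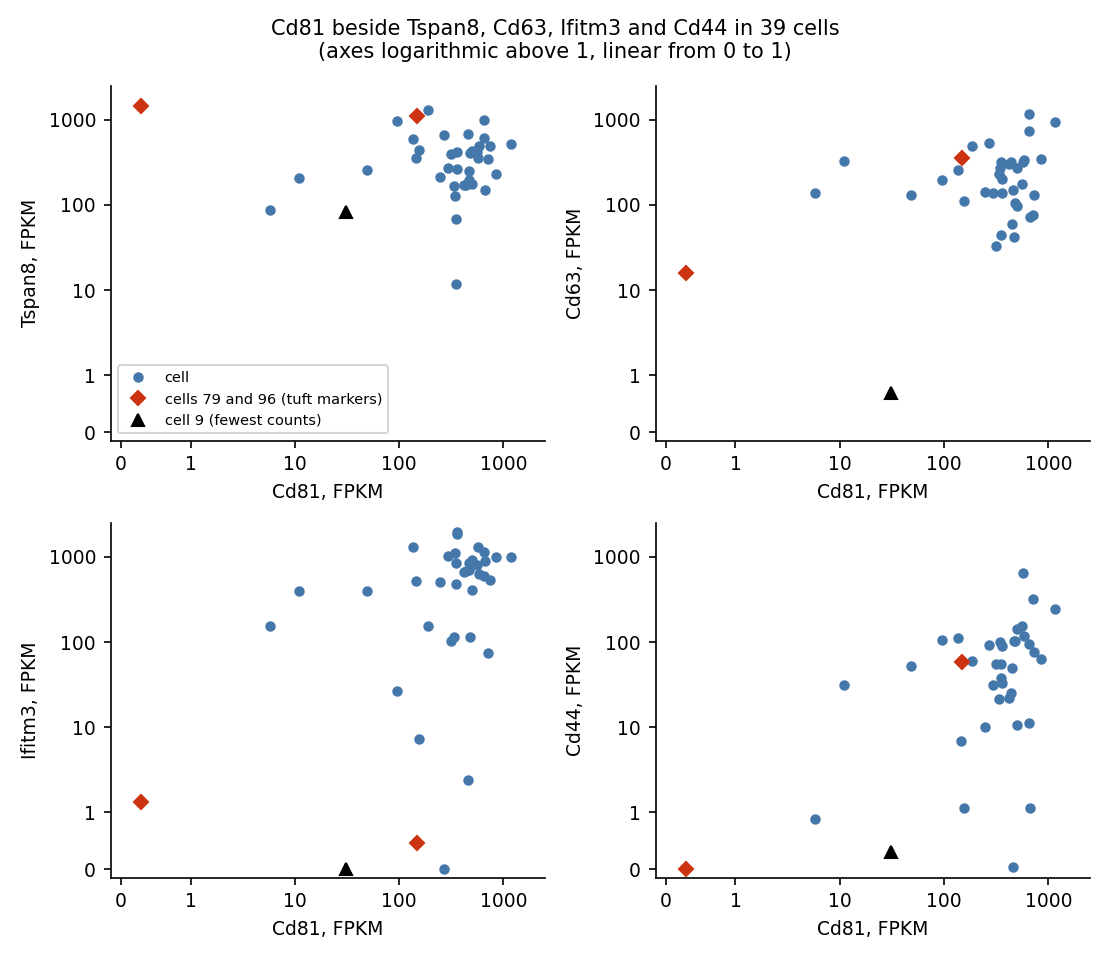
FPKM of Tspan8, Cd63, Ifitm3 and Cd44 against FPKM of Cd81 in 39 cells, on axes that are logarithmic above 1 and linear from 0 to 1. Each point is a cell; diamonds are cells 79 and 96 and the triangle is cell 9, and the Spearman coefficients are 0.04, 0.16, 0.46 and 0.43 in that order.

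The members were also set beside the level of 9 gene lists in each cell, taken as the mean log2(FPKM + 1) over the genes of the list. Of these 90 coefficients, 4 (4.44%) were 0.4 or more in size, and over all genes and the same lists the share was 3.81%. They were Tspan13 with YAP and revival genes (-0.46), Tspan8 with stem genes (-0.43), Cd63 with cycling genes (-0.40) and Cd81 with the tetraspanin partners (0.40). The coefficient of Cd63 with cycling genes was -0.57 without cells 9 and 79, and that of Tspan8 with stem genes was -0.47. Without cells 79 and 96 the latter was -0.36. With the number of genes detected held fixed, the values were -0.34 for Cd63 with cycling genes and -0.36 for Tspan8 with stem genes, both under 0.4 in size, and -0.47 for Tspan13 with YAP and revival genes and 0.47 for Cd81 with the tetraspanin partners. The cycling list itself stood at 0.62 with the number of genes detected. The partner list holds Ifitm3 and Cd44, and its coefficient with Cd81 was 0.31 without cells 9 and 79.

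Cd81 stood at 0.34 with the stem gene list (Lgr5, Olfm4, Ascl2, Smoc2, Axin2, Aqp4, Cdca7, Scn2b and Slc12a2), higher than 87.0% of genes, at 0.24 without cells 9 and 79, and at 0.43 with the number of genes detected held fixed. The study took Cd81 up for its relation to such genes and for its high level in these same cells. This value is therefore no independent evidence of that relation. With cycling genes Cd81 stood at 0.03, and with goblet cell markers at -0.35. Tspan3 stood at 0.36 with stem genes and 0.37 with cycling genes. Its coefficient with the number of genes detected in a cell was 0.47, and with that number held fixed the values were 0.20 and 0.12.

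Of 21 other tetraspanin genes, 5 had a mean of 10 FPKM or more and 10 were at 1 FPKM in no cell. The leukocyte tetraspanins Cd37 and Cd53 were at 0 in all 39 cells. Tspan12, a co-receptor component of Norrin and Frizzled signalling, had a mean of 103 ± 140 FPKM over all 39 cells, above Cd9. It was at 1 FPKM or more in 27 cells. The means were 36.2 FPKM for Tspan7, 31.9 for Tspan6, 21.7 for Tspan14 and 12.01 for Tspan15. Tspan12 had the highest coefficient with Cd81 of these 5, 0.28.

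Tspan6 was found in 3 cells at 1 FPKM or more and was listed at 0 in 34. Cell 79 held 664 FPKM, cell 96 held 575 FPKM and cell 14 held 6.30 FPKM. Cells 79 and 96 were also the 2 cells with at least 2 of the 4 tuft cell markers Dclk1, Trpm5, Pou2f3 and Avil at 1 FPKM or more, with 3 markers in cell 79 and 4 in cell 96. Tuft cells are rare chemosensory cells of the gut epithelium. Cell 79 also held the highest level of the enterocyte marker Fabp1, 40997 FPKM, and of the enteroendocrine marker Sct, 498 FPKM. Its Pou2f3 was at 0, so these markers did not settle its cell type.

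Levels of the members in the same pair of cells were as follows. Tspan8 was 1452 FPKM in cell 79 and 1098 FPKM in cell 96, places 1 and 3 among all cells. Cd9, Cd151 and Cd82 were at 0 in both, as they were in 7, 15 and 25 of all 39 cells. Cd81 differed between them, at 0.285 and 148 FPKM, and so did Tspan13, at 146 and 0 FPKM, and Tspan12, at 0 and 343 FPKM. These are 2 cells, chosen after their values were seen, and they had 2335 and 2988 genes at 1 FPKM or more, both under the median of 4609.

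Some values rest on sequence that other genes share. Tspan31 lies on chromosome 10 at 127067290 to 127070261, tail to tail with the cell cycle kinase gene Cdk4. In the deposited table Cdk4 ends at 127067282, so that 7 bases lie between the genes. In GENCODE M21 their spans overlap by 641 bases, and 39.3% of the 50-base stretches of the longest coding Tspan31 transcript also occur in Cdk4 transcripts when both strands are read. Part of these stretches also occurs in other genes, 67 in all with Cdk4. The kit does not mark strand and no use of strand is stated, so reads from the overlap of GENCODE M21 could be counted for either gene. Which annotation was used for counting is not given in the sources used here, and the level of Tspan31 is uncertain to that extent. Of 6 cells with Tspan31 at 0, 5 had Cdk4 at 1 FPKM or more, a share near that of all cells (37 of 39), and the coefficient between them was -0.01.

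For Cd63, 36.5% of the 50-base stretches also occur in the processed pseudogene Cd63-ps, which was not analysed here. The share was 15.5% for Cd9, with 2 other genes, and 7.87% for Cd151, with 1 other gene. No stretch was shared by Cd81, Cd82, Tspan1, Tspan3, Tspan8 or Tspan13. No 50-base stretch was common to a pair of members, so a read of that length or longer could not match both. The start of Cd81 is overlapped over 937 bases by R74862 on the opposite strand, which had a mean of 0.135 FPKM. Cd82 is overlapped over 10132 bases by Gm10804 on the opposite strand and over 79 bases by Mir7001 on its own strand, both at 0 in every cell.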

How the data were processed

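Single-cell RNA sequencing values of 39 cells were analysed. Cells were captured on a microfluidic chip, inspected under the microscope, and made into SMARTer and Nextera XT libraries that were sequenced as paired-end reads. The submitters' processing notes name bcl2fastq 1.8.4, TopHat2 2.0.14 and the mm10 (GRCm38) build, and the counting tool and annotation are not given in the sources used here. The authors deposited FPKM values, scaled per cell, for 25219 genes. They also deposited estimated counts, which were not normalized and were used here for depth and, rounded, for thinning.

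FPKM values were used as deposited. Coefficients were Spearman's over cells, beside all 4917 genes whose mean reached 10 FPKM, and detection meant 1 FPKM. No count model was fitted and no doublets were called. A list's level in a cell was the mean log2(FPKM + 1) of its genes. Cells with tuft markers were those with at least 2 of them at 1 FPKM or more. Named genes were the members, other tetraspanins and partners whose mean reached 10 FPKM, the 5 highest and 5 lowest coefficients with Cd81, the 3 highest for each other member, and genes overlapping a member. Values of other named genes were given where a result turned on them, and 1 partner gene is not reported here. The members and lists were chosen with earlier results of these data known. Alternatives were other scales, filters, detection limits and thinning, and cells left out. Ranking was tested on simulated data, where 100% of 200 planted genes among 4917 were recovered. The planted effect was made strong, so this checks the calculation and not the reliability of the rankings given here. Versions were matplotlib 3.10.9, scipy 1.17.1, pandas 2.3.3 and numpy 2.4.6 under Python 3.11.15.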

Additional observations from a re-analysis of the deposited data

How the results depend on the processing

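The place of Cd81 by level was 2 by the mean and 2 with cells rescaled to the same total or with estimated counts, and it was 1 by the median, without cells 9 and 79, and without cells 79 and 96. The share of cells with Cd81 was 97.4%, and 97.4% at 5 FPKM. It was 97.4% after thinning, where any read counted (38 cells, with cell 9 left out), and 100% for any value above 0 and without cells 79 and 96. The last setting, and the one on cells 9 and 79 for the genes most like Cd81, were chosen after seeing the data. The Gini coefficient of Cd81 stayed between 0.333 and 0.365 in 3 alternatives, and its place among the members was 1 except by the SD of log2(FPKM + 1), where it was 4. The share of genes more even than Cd81 was 39.1% among genes with a mean of 100 FPKM or more. Cd81 led in 21 or 22 cells in each alternative. The median of the 45 pairs lay between -0.01 and 0.08, and of the single pair values, 268 stayed within 0.1 of the main value, 47 moved by more, and none at 0.3 or more in size changed sign. With a mean filter of 1 FPKM, 3.68% of genes reached 0.3 with Cd81, and with no filter 3.02% did. Of the 5 genes most like Cd81, 5 were kept with the 1 FPKM filter, 3 with the number of genes held fixed, and 3 without cells 9 and 79. The causes were not tested. No paired analysis was possible because all cells form 1 group. Cd151 and Cd82 had median counts of 3 and 0 per cell, so their values rest on few reads in most cells, and a low level and limited depth were not told apart.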

Other observations

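For each other member, the genes with the 3 highest Spearman coefficients over the 39 cells were looked up in the same way as for Cd81. These coefficients were those of Zfp809, Ctsh and Ubxn8 for Cd9 (0.64, 0.58 and 0.56), of Rpl37, Uqcrc2 and Rpl37rt for Cd63 (0.61, 0.56 and 0.56), and of Tmem59, Psma2 and Dstn for Tspan8 (0.62, 0.61 and 0.55). Ctsh encodes the lysosomal protease cathepsin H, Psma2 a proteasome subunit and Dstn the actin-severing protein destrin.

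Of the remaining members, Tspan3 was followed by Tiprl (0.65), Jtb (0.63) and the spindle checkpoint gene Mad2l1 (0.63). Tspan1 was followed by Psenen, a subunit of gamma-secretase (0.58), Cuta (0.55) and Mrpl45 (0.53), and Tspan13 by Rchy1 (0.58), Brd8 (0.54) and Tbrg1 (0.54). Tspan31 was followed by Rwdd4a (0.61), Tmf1 (0.59) and Gpx2-ps1 (0.56). Cd151 was followed by Pdhb (0.56), Mgst1 (0.54) and Soat1 (0.53), and Cd82 by Gnl3l (0.53), Atp6v1c1 (0.53) and Cnih1 (0.53). Each is the top of a ranking of 3368 or 3369 genes over 39 cells.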
